A study of Drosophila melanogaster with 6 samples.

Results

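The 27 genes described here encode the Jonah proteases and the Greek-letter trypsins of the *Drosophila melanogaster* digestive tract. They were chosen by name, as every gene whose name starts with Jon and a digit (16 Jonah genes) or ends in Try (11 trypsin genes), out of 15656 genes in the deposited table. The families were selected on their normalized read counts in the same contrast that is given below, so all differences of the 27 genes between the groups are a description and carry no test. RNA sequencing of adult males compared 3 libraries of overexpression flies, whose genotype is Gal80ts; Tub>lncRNA-CR33942, with 3 of controls, whose genotype is Gal80ts; Tub-Gal4/P{CaryP}attP40. *E. coli* was injected into the thorax of both, and the flies were collected 12 h after infection. No uninfected library was analysed here. Tub-Gal4 drives expression in nearly all cells and Gal80ts is a temperature-sensitive repressor of Gal4. Flies of both genotypes were kept at 18°C and then at 29°C for over 24 h, and the infected adults of the study were 3 to 5 d old. The libraries came from whole flies according to their labels, and the sources used here do not give the number of flies in each. The study describes its experiments in general as having 3 independent biological replicates. It does not say whether the 3 libraries of a group came from separate cohorts, so SDs and p-values measure the spread between these libraries.

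Jonah proteases and trypsins are serine proteases that enterocytes of the midgut secrete into the gut lumen. Trypsins are made as inactive precursors, and cleavage of a short N-terminal peptide activates them. Trypsin cuts after lysine or arginine, whereas the Jonah proteins are counted among the chymotrypsin-like proteases. The Jonah genes are named after the bands of the polytene chromosomes in which they lie, so that Jon25Bi, Jon25Bii and Jon25Biii are neighbours, and the trypsin genes form a single array on chromosome arm 2R. Such genes are known to respond to feeding and to gut infection.

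The libraries held 16894595 to 19423287 reads assigned to genes, and the most abundant gene took 5.60% to 6.50% of them. The deposited value of a gene is its read count over the size factor of the library, called a normalized count here. FPKM, the read count scaled to gene length and library total, were computed from the recovered reads and are used only for comparing levels between genes. The overexpressed lncRNA-CR33942 (listed as pncr016:2R) had 197 ± 17.1 normalized counts in control and 4636 ± 244 in overexpression libraries (SD, n = 3 each), a difference of 4.55 on the log2 scale (SE 0.07, limma adjusted p = 8.43e-13). Among the 13196 genes whose mean FPKM reached 0.5, limma on log2(normalized count + 1) called 420 higher and 691 lower in overexpression libraries at a Benjamini-Hochberg adjusted p under 0.05. A log2 difference below is always overexpression minus control on this scale.

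The 27 genes spanned a wide range of levels. Mean FPKM over the 6 libraries was highest for alphaTry at 2770, followed by Jon65Aiv at 1575, betaTry at 1303 and Jon65Aiii at 1189. These 4 genes held between 73.2% and 79.6% of the summed normalized counts of all 27 in each library. The least abundant trypsin gene was etaTry at 11.1 FPKM. Among Jonah genes, Jon66Cii was listed at only 0.21 FPKM, with 1.02, 3.22 and 1.90 normalized counts in control replicates 1, 2 and 3 and 2.98, 3.05 and 6.60 in overexpression replicates 1, 2 and 3. Values at this level rest on a few reads, and Jon66Cii alone of the 27 genes failed the filter of 0.5 FPKM, which left 26 genes in the fit.

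**Figure D1:**
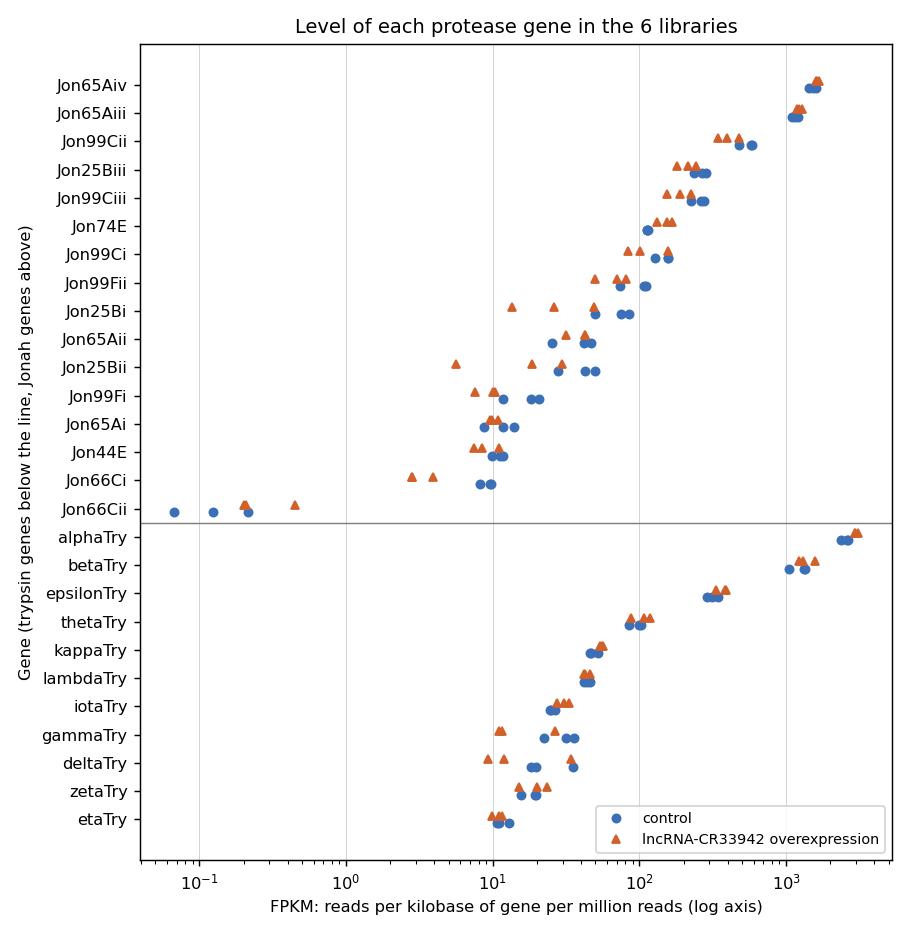
FPKM of the 27 genes in each library on a log axis, with control libraries as circles and overexpression libraries as triangles, Jonah genes above the line and trypsin genes below it, each family ordered by mean level. Levels run from 0.21 FPKM for Jon66Cii to 2770 FPKM for alphaTry, and the separation of circles from triangles is widest for Jon66Ci.

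All 27 genes together took 0.80% ± 0.06 of the reads in control libraries and 0.85% ± 0.04 in overexpression libraries (SD, n = 3 each), with the 6 values between 0.73% and 0.89%. The Jonah share was 0.40% ± 0.03 in control and 0.38% ± 0.02 in overexpression libraries. The trypsin share was 0.41% ± 0.03 and 0.46% ± 0.02. In normalized counts, the Jonah genes summed to 75062, 65709 and 75441 in control libraries and to 72617, 64737 and 65667 in overexpression libraries, so the groups overlapped. The trypsin genes summed to 77436, 66673 and 77334 in control libraries and to 85256, 78373 and 82715 in overexpression libraries. Each overexpression library thus lay above each control library for the trypsin sum, which is set mostly by alphaTry and betaTry. In RNA of whole flies, fewer cells of a type and less RNA per cell cannot be told apart.

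Of the 26 genes in the fit, 7 were called lower in overexpression libraries (6 Jonah genes and gammaTry), against 5.24% of all genes tested. Jon74E alone was called higher, against 3.18% of all genes tested, and 18 genes were not called. The 3 overexpression libraries all lay below the 3 control libraries for 5 of the 26 genes, against 14.4% of all genes tested, and all above them for 3 (Jon74E, alphaTry and kappaTry), against 12.9%. Calls were more frequent at high levels: of 894 genes whose mean FPKM reached 100, 147 were called lower and 66 higher. That was 23.8% called either way, against 8.42% of all genes tested and 30.8% of the 26. Because the families were chosen with these values in view, nothing is read from the counts. The median log2 difference was -0.16 for the 26 genes and 0.006 for all genes tested. Given as a description only, the medians were -0.45 for 15 Jonah genes, 11 of them below zero, and 0.09 for 11 trypsin genes, 7 of them above zero.

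**Figure D2:**
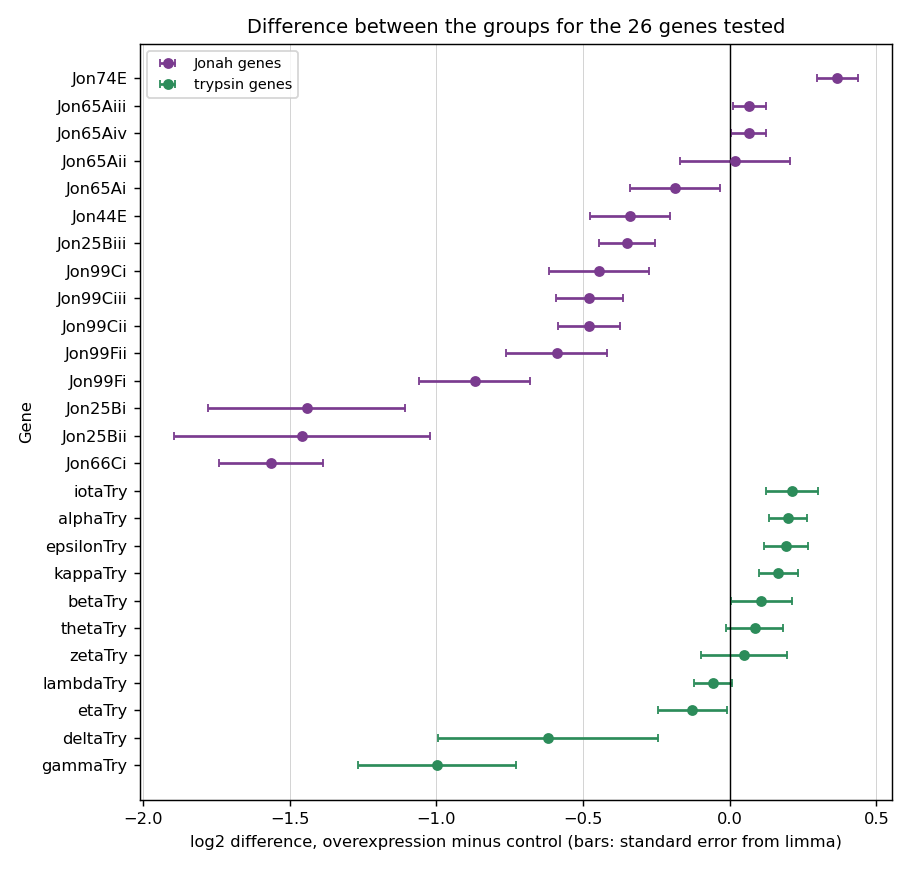
Log2 difference in normalized count, overexpression minus control, for the 26 genes that were fitted, with bars of 1 SE from limma (n = 3 libraries per group). Values run from -1.56 for Jon66Ci to 0.37 for Jon74E, and the trypsin genes lie between -0.13 and 0.21 apart from gammaTry and deltaTry.

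The 4 genes above 1000 FPKM all had log2 differences above zero, with a median of 0.09, and none was called, although betaTry was just under zero (-0.0074) without control replicate 2. The other 22 fitted genes had a median of -0.35 and held all 7 genes called lower and the 1 called higher. Among all 894 genes whose mean FPKM reached 100, the median was -0.04.

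Jon66Ci had the lowest log2 difference of the 26 genes. Its normalized counts were 124, 146 and 149.8 in control replicates 1 to 3 and 41.7, 58.0 and 41.5 in overexpression replicates 1 to 3. Every overexpression library lay far below every control library, and the mean was 2.97-fold lower (log2 difference -1.56, SE 0.18). Its neighbour Jon66Cii, 442 bases away on chromosome arm 3L (the pair spans 8391540 to 8393649), was too low to compare. Jon66Ci was the only gene of the 27 called lower under all 15 settings of the analysis, with log2 differences from -1.72 to -1.49. These settings refit the libraries on which the families were selected, so a kept call is no independent support.

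The 25B genes lie within 5204 bases of chromosome arm 2L (4949941 to 4955144) and differed in how far they were lower. Jon25Bi had 1327, 788 and 1199 normalized counts in control libraries and 749, 207 and 399 in overexpression libraries. The groups did not overlap, although overexpression replicate 1 was close to control replicate 2, and the log2 difference was -1.44 (SE 0.34). Jon25Bii had 805, 452 and 704 normalized counts in control and 468, 88.5 and 295 in overexpression libraries, with a log2 difference of -1.46 (SE 0.44). Its groups overlapped, its overexpression libraries had a coefficient of variation of 66.9%, and it was not called. The most abundant of the 3, Jon25Biii at 237 FPKM, had 4002, 3518 and 4315 normalized counts in control and 3546, 2639 and 3134 in overexpression libraries. It was called lower with a small log2 difference of -0.35 (SE 0.10), and its groups overlapped by a narrow margin. The ratio of Jon25Biii to Jon25Bii in normalized counts therefore varied from 4.97 to 29.8 between libraries, and it was highest in overexpression replicate 2.

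The 99C genes, within 3974 bases of chromosome arm 3R (29922216 to 29926189), were close to each other in their differences, which ran from -0.48 to -0.45. Jon99Cii had 9135, 7522 and 9165 normalized counts in control libraries and 7313, 5219 and 6068 in overexpression libraries (log2 difference -0.48, SE 0.11). Jon99Ciii had 6230, 5028 and 6043 in control and 4964, 3405 and 4139 in overexpression libraries (log2 difference -0.48, SE 0.11). For both genes the overexpression libraries lay below the control libraries, by a gap that was small beside the spread within a group. The ratio of Jon99Cii to Jon99Ciii stayed between 1.47 and 1.53 in the 6 libraries. Jon99Ci had 2581, 2086 and 2595 normalized counts in control and 2518, 1339 and 1635 in overexpression libraries (log2 difference -0.45, SE 0.17). Overexpression replicate 1 of Jon99Ci was within the control values, the groups overlapped, and the gene was not called.

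The 99F pair lies further along the same arm (30487016 to 30489895). Jon99Fi had 348, 198 and 315 normalized counts in control libraries and 125, 165 and 171 in overexpression libraries. The groups did not overlap, and the log2 difference was -0.87 (SE 0.19). Jon99Fii had 1837, 1212 and 1816 in control and 1313, 798 and 1129 in overexpression libraries, with a log2 difference of -0.59 (SE 0.17). Overexpression replicate 1 exceeded control replicate 2 for Jon99Fii, and the gene was not called.

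Jon74E was the only gene of the 27 called higher. It had 3151, 3151 and 3276 normalized counts in control libraries and 4555, 4228 and 3623 in overexpression libraries (131.6 FPKM over the 6 libraries). The control libraries were nearly equal and each overexpression library was above them, with a log2 difference of 0.37 (SE 0.07). Jon74E lies on chromosome arm 3L with no other Jonah gene beside it. It kept its call under 14 of 15 settings, the exception being limma without the intensity trend. As for Jon66Ci, this describes refits of the same libraries and is no independent support.

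The remaining Jonah genes were not called. Jon65Aiv, the most abundant Jonah gene, had 26167, 23478 and 25405 normalized counts in control libraries and 26936, 25939 and 25538 in overexpression libraries, and the groups overlapped (log2 difference 0.06, SE 0.06). The log2 differences of the 65A genes, which share 15289 bases of chromosome arm 3L (6039155 to 6054443), ran from -0.19 for Jon65Ai to 0.07 for Jon65Aiii, although their mean levels differed by 146-fold per length. Jon44E, on chromosome arm 2R, had a log2 difference of -0.34 (SE 0.14). One end of Jon44E (1397 bases long) overlaps CG8586 on the opposite strand, from base 8692796 to base 8692844. Since the strand setting of the counting is not given, reads of this stretch could not be assigned to one of them here.

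The 11 trypsin genes lie within 20698 bases of chromosome arm 2R (11336840 to 11357537). The most abundant, alphaTry, had 41355, 37176 and 41027 normalized counts in control libraries and 44862, 44853 and 47318 in overexpression libraries. The groups did not overlap, with all overexpression libraries on the higher side, yet the log2 difference was only 0.20 (SE 0.07) and alphaTry was not called. Its share of all reads was 0.219% ± 0.012 in control and 0.258% ± 0.0078 in overexpression libraries (SD, n = 3 each). betaTry, the second trypsin gene by level, had 25954, 20444 and 26009 normalized counts in control and 29865, 23359 and 24757 in overexpression libraries, and its groups overlapped (log2 difference 0.11, SE 0.10). kappaTry had 822 ± 64.9 normalized counts in control and 920.3 ± 21.7 in overexpression libraries, and its groups did not overlap, by less than 1 normalized count (log2 difference 0.16, SE 0.07). The least abundant, etaTry, had 211, 176 and 184 normalized counts in control and 177, 186 and 159 in overexpression libraries, which overlapped (log2 difference -0.13, SE 0.12). The log2 differences of lambdaTry, zetaTry, thetaTry, epsilonTry and iotaTry lay between -0.06 and 0.21, and none of them was called.

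gammaTry and deltaTry stood apart from the rest of the array. gammaTry had 527, 461 and 333 normalized counts in control libraries and 167, 159 and 380 in overexpression libraries. It was called lower (log2 difference -0.998, SE 0.27), but overexpression replicate 3 lay above control replicate 3, so the groups overlapped. deltaTry had 516, 288 and 274 in control and 133, 172 and 488 in overexpression libraries, and was not called (log2 difference -0.62, SE 0.37). For deltaTry too, overexpression replicates 1 and 2 were below the controls while replicate 3 was within them. The coefficient of variation among overexpression libraries was 73.6% for deltaTry and 53.4% for gammaTry.

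A pair of genes with a trypsin domain but no Try in their name lies between gammaTry and deltaTry, and was looked at for its position. CG30031 had 352, 337 and 301 normalized counts in control libraries and 146, 130.2 and 192 in overexpression libraries. It was lower in each overexpression library than in any control library (log2 difference -1.09, SE 0.14, limma adjusted p = 0.000411). CG30025 had 251, 241 and 172 in control and 78.4, 93.6 and 180.2 in overexpression libraries (log2 difference -0.98, SE 0.25, limma adjusted p = 0.0316), and overexpression replicate 3 again overlapped the controls. Summed over the 4 genes, which span 7068 bases, normalized counts were 1647, 1327 and 1079 in control and 524, 554 and 1241 in overexpression libraries. The sum was low in overexpression replicates 1 and 2 and within the control range in replicate 3. betaTry, 1665 bases from gammaTry, and iotaTry, 591 bases from deltaTry, had log2 differences of 0.11 and 0.21. The sources used here do not say how reads that match several genes were treated, and the gene sequences were not compared, so the values of gammaTry, deltaTry, CG30031 and CG30025 are uncertain as separate genes. One end of deltaTry also overlaps CG13202 on the opposite strand, from base 11356114 to base 11356128.

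**Figure D3:**
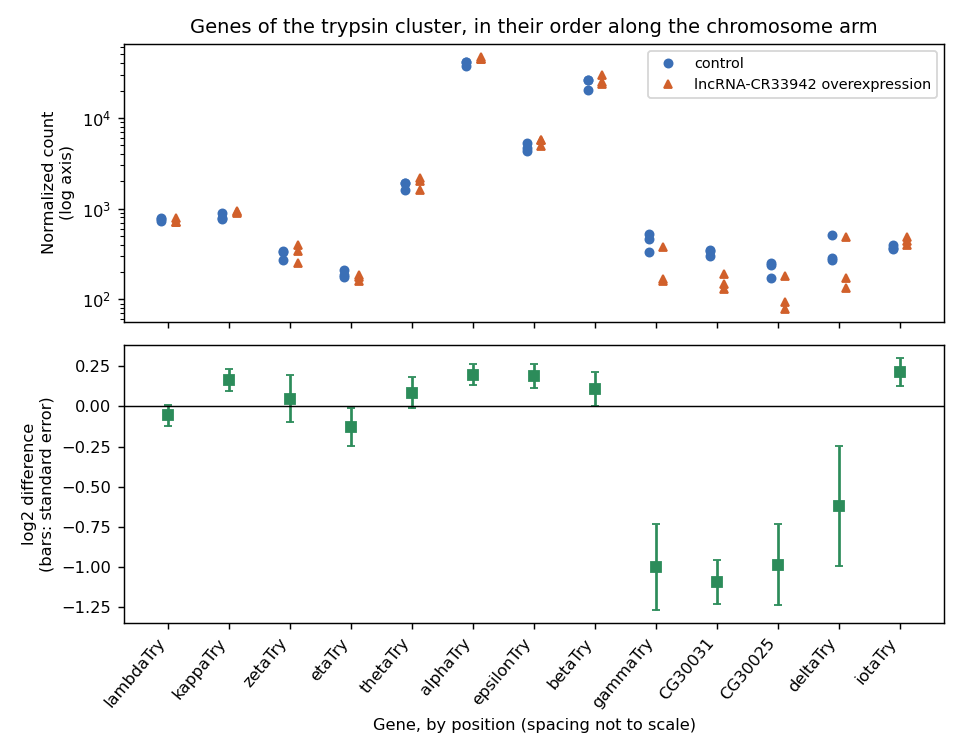
The trypsin array on chromosome arm 2R in gene order, with the 11 trypsin genes and the intervening CG30031 and CG30025. The upper panel gives the normalized count of each library (log axis) and the lower panel the log2 difference, overexpression minus control, with bars of 1 SE (n = 3 per group). The 4 adjacent genes from gammaTry to deltaTry lie between -1.09 and -0.62, while the genes on both sides lie between -0.13 and 0.21.

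The replicates of a group differed more for these genes than for most. Among genes with a mean of at least 100 normalized counts, the median coefficient of variation was 10.9% in control and 14.9% in overexpression libraries for 25 of the 27 genes, and 5.46% and 6.07% for all 10046 such genes. Replicate 2 was the lowest control library for 22 of the 26 fitted genes and the lowest overexpression library for 14 of them. It was lowest in both groups for 12 genes (46.2%), against 13.1% of all genes tested. These 12 were Jon25Bi, Jon25Bii, Jon25Biii, Jon65Aii, Jon99Ci, Jon99Cii, Jon99Ciii, Jon99Fii, zetaTry, thetaTry, alphaTry and betaTry. The pattern was not particular to the 27 genes. Many other genes of digestion were also lowest in replicate 2 of both groups. Among them were tobi, Mal-A1, Mal-A3, Mal-A5, Mal-A6, CG6295, CG17192, CG12374, CG8560, Try29F and CG10472. Others, such as yip7, Ser6, Phae1 and Amy-p, were not. These genes are examples, and the share among all other genes of digestion was not counted, so it cannot be set beside the shares above. The labels do not tie libraries of equal number to one another.

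**Figure D4:**
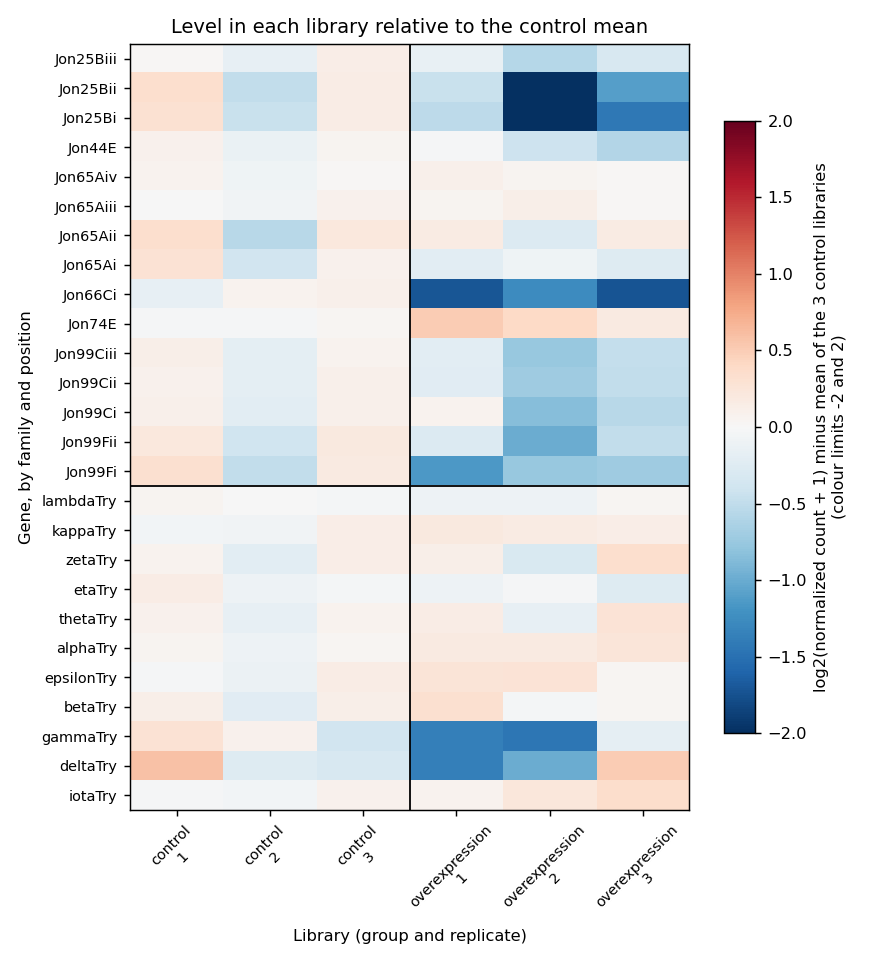
Normalized counts of the 26 fitted genes in each library as log2(normalized count + 1) minus the mean of the 3 control libraries, in blue below and red above it, with colours limited to 2 units on either side of zero. Control replicate 2 is pale blue for most Jonah genes, overexpression replicate 2 is darkest for Jon25Bi and Jon25Bii, and Jon66Ci is dark in all 3 overexpression libraries.

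Several calls depended on single libraries, and so did the totals over all genes, whose 691 lower and 420 higher calls became 328 and 201 without control replicate 1 and 394 and 235 without control replicate 3. Without overexpression replicate 1 there were 519 lower and 279 higher calls over all genes. Without control replicate 1, only Jon66Ci remained called lower, and Jon25Bi (-1.29), Jon25Biii (-0.34), Jon99Cii (-0.44), Jon99Ciii (-0.42), Jon99Fi (-0.71) and gammaTry (-0.86) lost their calls at these log2 differences. Without control replicate 3, Jon66Ci and gammaTry were the only genes called lower, and Jon25Bi (-1.37), Jon25Biii (-0.28), Jon99Cii (-0.43), Jon99Ciii (-0.44) and Jon99Fi (-0.78) lost theirs. gammaTry also lost its call without control replicate 2 (-0.95), overexpression replicate 1 (-0.81) or overexpression replicate 2 (-0.78). Jon99Fi was not called without overexpression replicate 1 (-0.73), and Jon25Biii was not called without overexpression replicate 2 (-0.24). Without overexpression replicate 3, Jon25Bi (-1.45), Jon25Biii (-0.36) and Jon99Ciii (-0.48) were not called, whereas deltaTry was (-1.18). Other genes gained a call when a library was left out: Jon25Bii and Jon99Fii without control replicate 2 or overexpression replicate 1, Jon44E and Jon99Ci without overexpression replicate 1, and epsilonTry, as higher, without overexpression replicate 3. Every one of the called genes kept the sign of its difference whichever library was left out.

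Other genes of digestion moved in both directions. Of 73 fitted genes in 4 lists of other digestive enzymes, 7 were called higher and 7 lower, with a median log2 difference of 0.01. That was 19.2% called either way, against 8.42% of all genes tested. The 7 lower calls became 4 without control replicate 1, control replicate 3 or overexpression replicate 2, and 11 without control replicate 2. Among 29 other serine proteases, 4 were called higher and none lower (median 0.11). They were yip7, which lies near the 65A genes (11566 ± 303 normalized counts in control, 13888 ± 452 in overexpression libraries, log2 difference 0.26, limma adjusted p = 0.00606), Ser6 (1.26, limma adjusted p = 0.000419), Phae1 (0.35, 0.0112) and Phae2 (0.56, 0.000345). These 4 serine proteases were on the opposite side from the 6 Jonah genes called lower and on the same side as Jon74E. Of the 29, 19 had a log2 difference above zero and 10 below it. The carbohydrases split evenly, with the maltases Mal-A4 (0.85, limma adjusted p = 9.12e-06) and Mal-A3 (0.51, 0.00275) higher and tobi, an alpha-glucosidase (-0.59, 0.00386), and Mal-A5 (-0.25, 0.0424) lower among 16 genes. Among 10 lipases, CG17192 (-1.0, limma adjusted p = 0.00908), CG18301 (-0.62, 0.000109) and CG6295 (-0.62, 0.0442) were lower and none was higher. Among 18 peptidases, CG3097 (-0.69, limma adjusted p = 0.00114) and CG2915 (-0.22, 0.0492) were lower and CG8562 (0.39, 0.0405) was higher. Of 160 fitted genes outside the 27 whose deposited domain entry is trypsin, 15 were called higher and 11 lower (16.25% called either way), with a median of 0.04. They include yip7, Ser6, Phae1, Phae2, CG30031 and CG30025.

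The labels name whole male flies, and the markers of several tissues were measured beside the proteases. All 5 enterocyte markers were above the filter. Of these, mex1 (log2 difference 0.80, limma adjusted p = 0.000692), GATAe (0.56, 0.000757) and nub (0.48, 0.0157) were called higher. Aph-4 (-0.31, limma adjusted p = 0.095) and Myo31DF (0.002, 0.988) were not called. The summed FPKM of the 5 was 121 to 139 in control and 124 to 141 in overexpression libraries, and Aph-4 made up most of it, with 88.8 ± 11.8 FPKM in control and 74.0 ± 10.7 in overexpression libraries (SD, n = 3 each). The 2 copper cell markers, 2 intestinal stem cell markers and 4 Malpighian tubule markers had no call, with summed FPKM of 7.13 to 7.44, 2.98 to 3.67 and 93.4 to 127 in control and of 8.0 to 8.83, 3.71 to 3.99 and 104 to 137 in overexpression libraries. Of 5 enteroendocrine markers, Tk was lower (-0.63, limma adjusted p = 0.00309), and their sum was 63.3 to 72.5 in control and 57.4 to 67.2 in overexpression libraries. Of 3 peritrophic matrix genes, Peritrophin-15a was higher (0.64, limma adjusted p = 0.00642), with sums of 97.4 to 99.7 in control and 109 to 117 in overexpression libraries. All 4 fat body markers were lower, namely Fbp1 (-1.69, limma adjusted p = 0.0274), Lsp2 (-1.59, 0.0108), Rfabg (-0.42, 0.0489) and fon (-0.28, 0.00827), with sums of 376 to 383 in control and 279 to 338 in overexpression libraries. Of the 4 fat body markers, only 2 (Lsp2 and fon) had groups that did not overlap, and Lsp2 was at only 2.90 FPKM. The groups of Fbp1, the marker with the lowest log2 difference, overlapped. For Rfabg, overexpression replicate 1 (34685 normalized counts) lay above control replicate 2 (33868). None of the tissue markers was at 0 in any library. The part of these tissues in the protease values was not tested.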

How the data were processed

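Poly(A)-selected RNA was sequenced in 3 control and 3 overexpression libraries. The authors aligned reads with HISAT2 2.0.5 and counted them per gene with featureCounts 1.5.0-p3, and the processing notes name build dm6. The deposited signal of each library is a read count divided by 1 size factor, although the table is named FPKM. Multiplied by that factor, 100% of values were whole numbers (tolerance 0.01). The authors' fold changes, p-values and group means were not used. Of the 27 genes, 27 had the same identifier and name and 26 the same position in the reference annotation (Jon74E differed).

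The design assumed FPKM. The test it named, limma 3.58.1 (R 4.3.3) with an intensity trend, was run on log2(normalized count + 1) for genes whose mean FPKM reached 0.5, and was tested on simulated data. Benjamini-Hochberg adjustment covered all 13196 genes tested. The 27 genes, the lists and the tests were chosen with earlier results of these data known. The list of genes with a trypsin domain was chosen after the table had been opened, in place of a search of protein sequences, and promoter motifs were not searched because no sequences were used here. Every one of the 27 genes is named. Values of all libraries are given for the called genes, the most and least abundant of each family and genes of split clusters, the last chosen after their values were seen. Other genes named are at most 4 called genes per list with the largest change, genes between members of an array, genes that overlap a member and the overexpressed lncRNA. Enterocyte markers are all named, called or not. Genes named as examples for the replicate 2 pattern were picked after their values were seen, and some of them were not called. Depth was 16894595 to 19423287 reads, and replicates differed by more than counting noise (between 5.05 and 8.99 chi-square units per degree of freedom). Alternatives were a pseudocount of 0.1, no filter, a filter of 5 FPKM, no intensity trend, a replicate block, each library left out, scaling to the library total, and edgeR 4.0.16 and DESeq2 1.42.0 on the recovered reads. Figures used matplotlib 3.10.9.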

Additional observations from a re-analysis of the deposited data

How the results depend on the processing

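Over 14 alternatives to the reported analysis of each of the 26 fitted genes, 310 values kept their direction and side of the threshold, 31 lost the call, 14 gained one and 9 changed sign. Those 9 were of genes called neither in the reported analysis nor in that alternative. With one library left out, log2 differences ran from -0.26 to 0.19 for Jon65Aii, from -0.094 to 0.22 for zetaTry, from -0.0074 to 0.18 for betaTry and from -0.0074 to 0.21 for thetaTry. Values under zero came without control replicate 2 (Jon65Aii, zetaTry and betaTry), overexpression replicate 1 (Jon65Aii) or overexpression replicate 3 (Jon65Aii, zetaTry and thetaTry). Jon65Aii was also under zero in edgeR (-0.0196) and DESeq2 (-0.0173). Without the intensity trend, 1 gene of the 26 (Jon66Ci) was called lower and 0 were called higher, and of the other digestive enzymes 1 was lower and 3 were higher, while calls over all genes fell from 691 to 99 lower and from 420 to 94 higher. DESeq2 called 4 of the 26 lower (Jon25Biii, Jon66Ci, Jon99Cii and Jon99Fi) and 2 higher (Jon74E and alphaTry), and 659 of all genes lower and 384 higher. Scaling to the library total called the same 2 genes higher and 6 lower, and of the other digestive enzymes 4 lower and 12 higher. It shifted the median of all genes from 0.006 to 0.05 and the share of higher calls among all genes from 37.8% to 55.7%. With one library left out at a time, 1 to 9 of the 26 were called lower and 1 to 2 higher, with a median log2 difference from -0.32 to -0.05, the other digestive enzymes had 4 to 11 lower and 5 to 10 higher calls, and all genes had 328 to 618 lower and 201 to 393 higher calls. edgeR called 7 of the 26 lower, with Jon99Fii in place of gammaTry, and 1 higher, and 674 of all genes lower and 430 higher. The causes of these changes were not tested.

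For libraries of equal replicate number, correlations of the deviations from the group means were -0.03, 0.05 and -0.04. Not every library correlated best with its own number. These values pool all genes tested and rest on 3 libraries per group, so they cannot show whether libraries of equal number were paired. A fit with the replicate block called 10 of the 26 lower and 1 higher, adding Jon25Bii, Jon99Ci and Jon99Fii, and called 12 of the other digestive enzymes lower and 14 higher. Over all genes it called 846 lower and 517 higher. With 3 libraries per group and a coefficient of variation of over 50% among overexpression libraries for Jon25Bi, Jon25Bii, gammaTry and deltaTry, the size of their differences is poorly fixed, and Jon66Cii was too low to compare at this depth.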
